A study of Homo sapiens with 12 samples.

Results

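Genes for the proteins of the mitochondrial ribosome were followed in IOSE80 cells, an immortalised line from normal human ovarian epithelium, across 4 treatments. The set was drawn by symbol: every locus of the deposited tables that carried a name of the form MRPL or MRPS followed by a number and, in some, a letter A, B or C. That rule gave 78 genes, each at 1 locus, of the 30574 loci in the tables. 49 of the 78 had an MRPL symbol, which by the naming stands for the large subunit, and 29 had an MRPS symbol, which stands for the small subunit. The cells had been kept for 28 days in 0.1% DMSO, a solvent that served as the control (3 libraries), in bisphenol A (BPA) at 0.25 nM (3 libraries) or at 2500 nM (3 libraries), or in E2 (2 libraries). BPA is a monomer of polycarbonate plastics and epoxy resins that binds oestrogen receptors weakly, and E2 is the common abbreviation of estradiol, the main oestrogen. The dose of E2 and the solvent of the BPA and E2 cultures are not given in the sources used here, and the third E2 library that the labels name was not analysed here. The labels do not say whether the libraries of a group came from separate cultures, so each p-value measures the spread between these libraries, which may be technical.

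Mitochondria keep their own ribosome, which translates the few mRNAs of the mitochondrial chromosome into core subunits of the respiratory chain and ATP synthase. Its RNA is transcribed from mitochondrial DNA, while all of its proteins are encoded in the nucleus, made in the cytosol and imported. Some of these proteins descend from the bacterial ribosome and others were added in the course of mitochondrial evolution. Assembly needs both subunits and a set of dedicated factors, and loss of single proteins of this ribosome causes inherited defects of respiration.

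The 78 loci lay on 21 chromosomes, and each lay on the strand that the GENCODE release 29 annotation gives for its gene. Promoters of 69 of the 78 genes were found in the RefSeq promoter table (GRCh38.p14, 250 bases before to 50 bases after each start). 6 motifs were searched there on both strands, and no match of one overlapped a match of another. CCGGAAG, the core bound by ETS factors such as GABPA (also called NRF2), a regulator of nuclear genes for mitochondrial proteins, stood in 29 of the 69 promoters (42.0%) and in 14.1% of 15774 promoters of other coding genes. AAGATGGC, the core bound by YY1, a zinc-finger factor of many housekeeping promoters, stood in 20 of the 69 (29%) and in 3.80% of the others. The site of NRF1, another regulator of nuclear genes for mitochondrial proteins, stood in 8 of the 69 (11.6%) against 8.56%. CACGTG, the E-box, stood in 8.70% against 8.88%, CCAAT in 29% against 36.4%, and TATAAA in 2.90% against 9.66%. The 39 matches of the ETS core began at a median position of -22 relative to the start, and 15 of the 21 YY1 matches began at or after the start.

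The windows below show these matches in genes that the results turn on, and in the abundant MRPL51. Each is read 5′ to 3′ on the strand of the gene in GRCh38.p14, with the motif in capitals. CTTCCGG and GCCATCTT are the reverse complements of the ETS and YY1 cores, and positions are those of the first base in capitals, with the base at the start counted as 0.
MRPL27, ETS core at -52, chr17:50373219-50373247, minus strand: ccacgcagggcCCGGAAGtagatctcctg
MRPL27, ETS core at -8, chr17:50373175-50373203, minus strand: acttttcgagaCCGGAAGtgagtgatcga
MRPS12, ETS core at -5, chr19:38930928-38930956, plus strand: acggatagcgcCCGGAAGaggctagaagc
MRPL54, ETS core at -21, chr19:3762650-3762678, plus strand: gccactgacgtCTTCCGGaaacgtgcact
MRPL32, YY1 core at -222, chr7:42932143-42932172, plus strand: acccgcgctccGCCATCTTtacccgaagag
MRPL47, ETS core at -39, chr3:179604660-179604688, minus strand: ggcttgagacgCCGGAAGtgacgctatcg
MRPL48, ETS core at -63, chr11:73787800-73787828, plus strand: aatttcagaagCTTCCGGaactaaaatga
MRPL57, NRF1 site at -74, chr13:21176574-21176603, plus strand: cctcggctctGCGCAGGCGCagtcctctct
MRPL51, YY1 core at 21, chr12:6493223-6493252, minus strand: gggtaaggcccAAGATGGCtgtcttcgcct
MRPS27, YY1 core at 16, chr5:72320206-72320235, minus strand: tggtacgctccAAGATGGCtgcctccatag
The promoter of MRPL49, described with the changes below, held an E-box and none of the other 5 motifs. A match is a run of letters in a fixed window and says nothing of binding in these cells.

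Levels are in FPKM, a fragment count divided by transcript length and by library size. Summed FPKM per library ran from 206719 to 213663, and 21223 to 23696 loci were above 0. The number of reads behind a value is unknown, because the files give no counts. The second DMSO library had the most loci above 0 and the lowest summed level of MRP genes. As for the label of the cells, of 10 markers of ovarian surface epithelium ALDH1A1 averaged 109 FPKM, KRT18 22.8, NR2F2 3.19 and KRT8 1.34, while WT1, MSLN, CALB2, UPK3B and KRT19 stayed at or below 0.21 in every library and KRT7 at or below 0.74. The mesenchymal gene VIM averaged 688, the fibroblast genes COL3A1 28.7 and PDGFRA 5.23, and the granulosa gene FOXL2 6.78. Other genes of the same lists were low. The mesenchymal genes CDH2 and FN1 averaged 0.57 and 0.099, the fibroblast gene COL1A1 0.42 and the granulosa gene AMH 0.78. The fibroblast genes DCN and COL1A2 reached at most 0.02 and 0.05. CDH1 reached at most 0.02, and the leukocyte gene PTPRC and the endothelial gene CDH5 at most 0.01. In bulk RNA, fewer cells of a type and less RNA per cell cannot be told apart.

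MRP transcripts were common in these cells. The median gene with an MRPL symbol averaged 22.1 FPKM over the 11 libraries and the median gene with an MRPS symbol 14.9, against 5.33 for the 12182 loci that passed the filter on low values (2 or more libraries at 1 FPKM or above). All 78 MRP genes passed that filter, and 74 lay above the median of all loci tested. The highest among MRPL symbols was MRPL41, a protein found only in mitochondrial ribosomes, with a mean of 118 FPKM, followed by MRPL15 with 106, MRPL51 with 98.5 and MRPL18 with 70.8. Among MRPS symbols the highest were MRPS21 with 72.4, MRPS34 with 71.6, MRPS26 with 49.1 and MRPS35 with 39.9. At the other end stood MRPL46 with 2.86, MRPL42 with 3.99, MRPL48 with 4.65 and MRPL19 with 5.01, and MRPS33 with 5.99, MRPS31 with 6.13, MRPS6 with 6.41 and MRPS5 with 6.45.

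**Figure D1:**
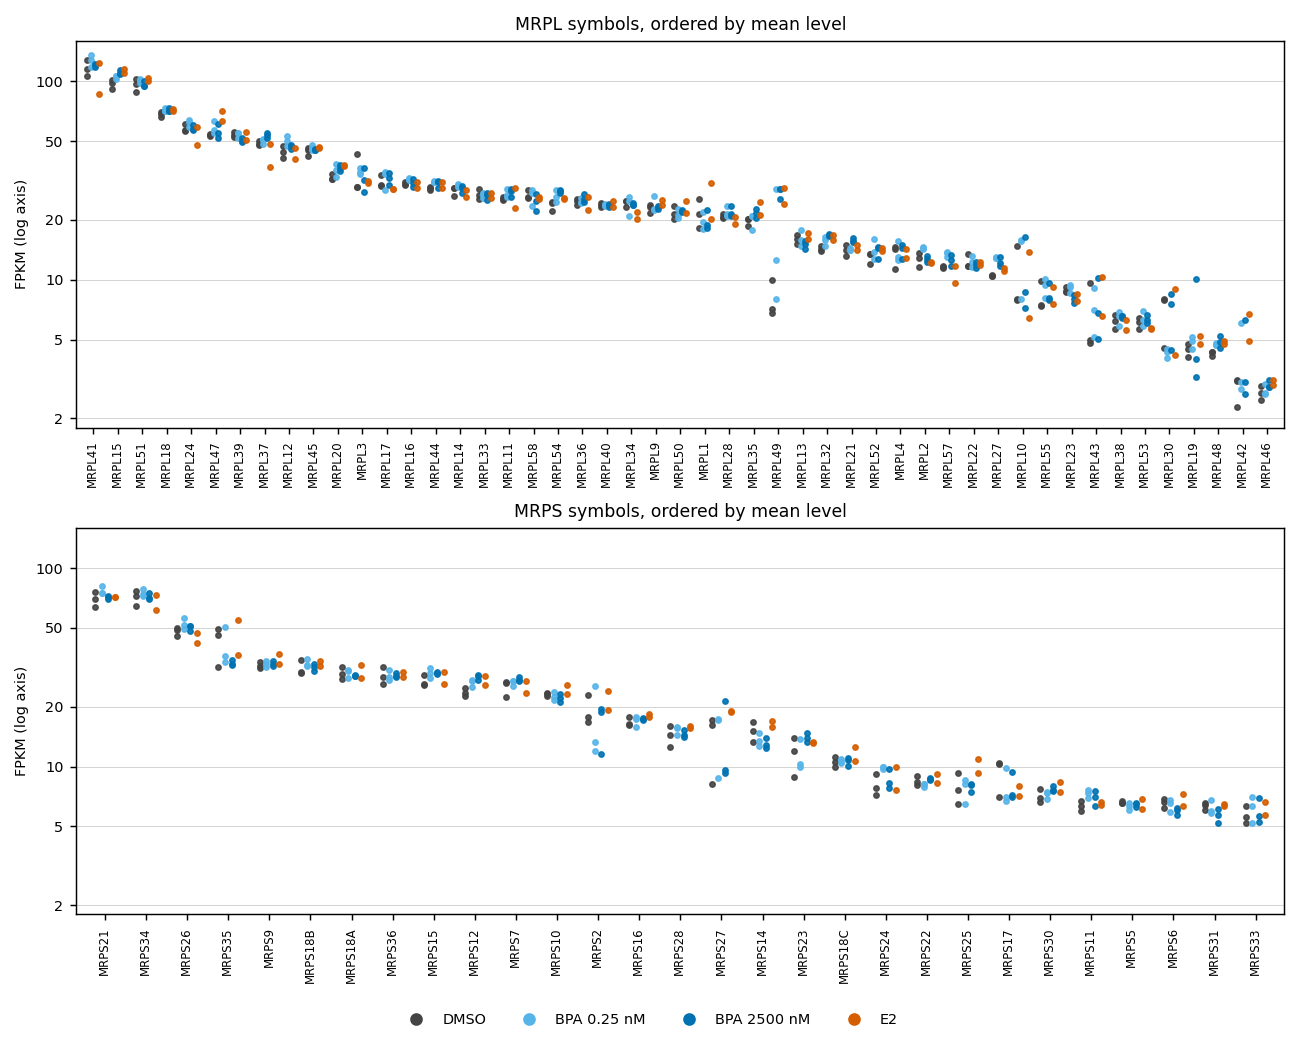
FPKM (log axis) of each MRP gene in each of the 11 libraries, coloured by group, with genes of each symbol class ordered by their mean. Most genes form a tight column of points, while MRPL49, MRPL10, MRPS27 and a few others split into separated levels.

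The order of neighbouring genes was often not separable. MRPL15 ran from 91.8 to 116 FPKM and MRPL51 from 88.0 to 104, so their ranges overlapped, and so did those of MRPS21 (63.7 to 80.9) and MRPS34 (61.2 to 78.3). MRPL41 ran from 85.9 to 136 and reached its lowest value in the second E2 library. MRPL18, a protein of the central protuberance whose bacterial relative binds an rRNA of the large subunit, spanned 66.1 to 73.7 in all 11 libraries, below every value of MRPL51.

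Symbols do not always name the place of the protein. MRPS30 and MRPS18A carry small-subunit names but sit in the large subunit, and MRPS36 is now known as a part of the 2-oxoglutarate dehydrogenase complex. MRPS30 averaged 7.09 FPKM with DMSO, 7.21 at 0.25 nM BPA, 7.72 with BPA 2500 nM and 7.94 with E2, and the libraries of every treated group overlapped those of DMSO. Of the 3 paralogs named MRPS18, MRPS18B ran from 29.6 to 34.7 FPKM, MRPS18A from 27.6 to 32.7 and MRPS18C from 9.97 to 12.5. MRPS36 ran from 25.9 to 31.6.

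Some values cannot be assigned to 1 gene. 17 of the 78 genes came from loci that carried more than 1 name, and for 13 of them a second coding gene was among the names. These were MRPL12 (with SLC25A10), MRPL28 (TMEM8A), MRPL30 (C2orf15 and LIPT1), MRPL33 (BABAM2), MRPL38 (FBF1), MRPL46 (DET1), MRPL53 (CCDC142), MRPS5 (ZNF514), MRPS6 (SLC5A3), MRPS16 (DNAJC9), MRPS17 (ZNF713 and NIPSNAP2), MRPS24 (URGCP) and MRPS28 (TPD52). The loci of 26 MRP genes also overlapped a locus on the opposite strand with a mean of at least 1 FPKM. The sources used here do not say whether the libraries kept strand, so reads of such pairs may not be told apart.

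Between libraries of 1 group most MRP genes varied little. The median residual standard deviation on the log2 scale was 0.083 for the 78 genes and 0.10 for all loci tested. Of the 78, 53 lay below the latter, and the loci were not matched for level. 63 genes had a highest library less than 1.5 times the lowest over all 11. The steadiest were MRPL18, MRPL40, MRPL27 and MRPL45, the last of which docks the ribosome to the inner membrane. MRPL40 stayed between 23.2 and 25.1 FPKM and MRPL45 between 42.2 and 47.6.

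A few genes varied more. 9 genes, 11.5% of the set, lay above the 90th percentile of residual SD of all loci tested (0.28), a share near the one that the percentile sets for all loci. They were MRPL10, MRPS27, MRPL49, MRPL43, MRPL42, MRPL19, MRPL30, MRPS2 and MRPS35. In several of them the libraries of 1 group fell at separated levels. How often other loci did so was not counted. MRPL10, which anchors the stalk that recruits translation factors, was at 13.9 to 16.4 FPKM in the third DMSO library, the first and the third BPA 0.25 nM library, the second BPA 2500 nM library and the second E2 library. In the other libraries it was at 6.40 to 8.64, and no library fell between. MRPS27, a small-subunit protein with pentatricopeptide repeats that is found only in mitochondria, was at 8.14 to 9.58 in 4 libraries, namely the third DMSO, the second BPA 0.25 nM and the second and the third BPA 2500 nM library, and at 16.3 to 21.4 in the other 7.

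The libraries that were high differed from gene to gene. MRPL30 was at 4.02 to 4.51 FPKM in the second DMSO library, all BPA 0.25 nM libraries, the third BPA 2500 nM library and the first E2 library, and at 7.56 to 8.94 in the rest. MRPL42 was at 2.29 to 3.11 except in the third BPA 0.25 nM library (6.03), the first BPA 2500 nM library (6.24) and both E2 libraries (4.94 and 6.69). MRPL43 reached 9.08 to 10.3 in 1 library of each group and 4.80 to 7.01 elsewhere. MRPL19, a protein at the interface of the subunits, departed in a single library: it was at 10.1 in the first BPA 2500 nM library and at 3.25 to 5.18 in all others. MRPS35 was at 46.07 to 54.96 in 4 libraries and at 31.7 to 36.4 in 7, and MRPS2 ran from 11.6 to 25.6 with no clear gap.

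**Figure D2:**
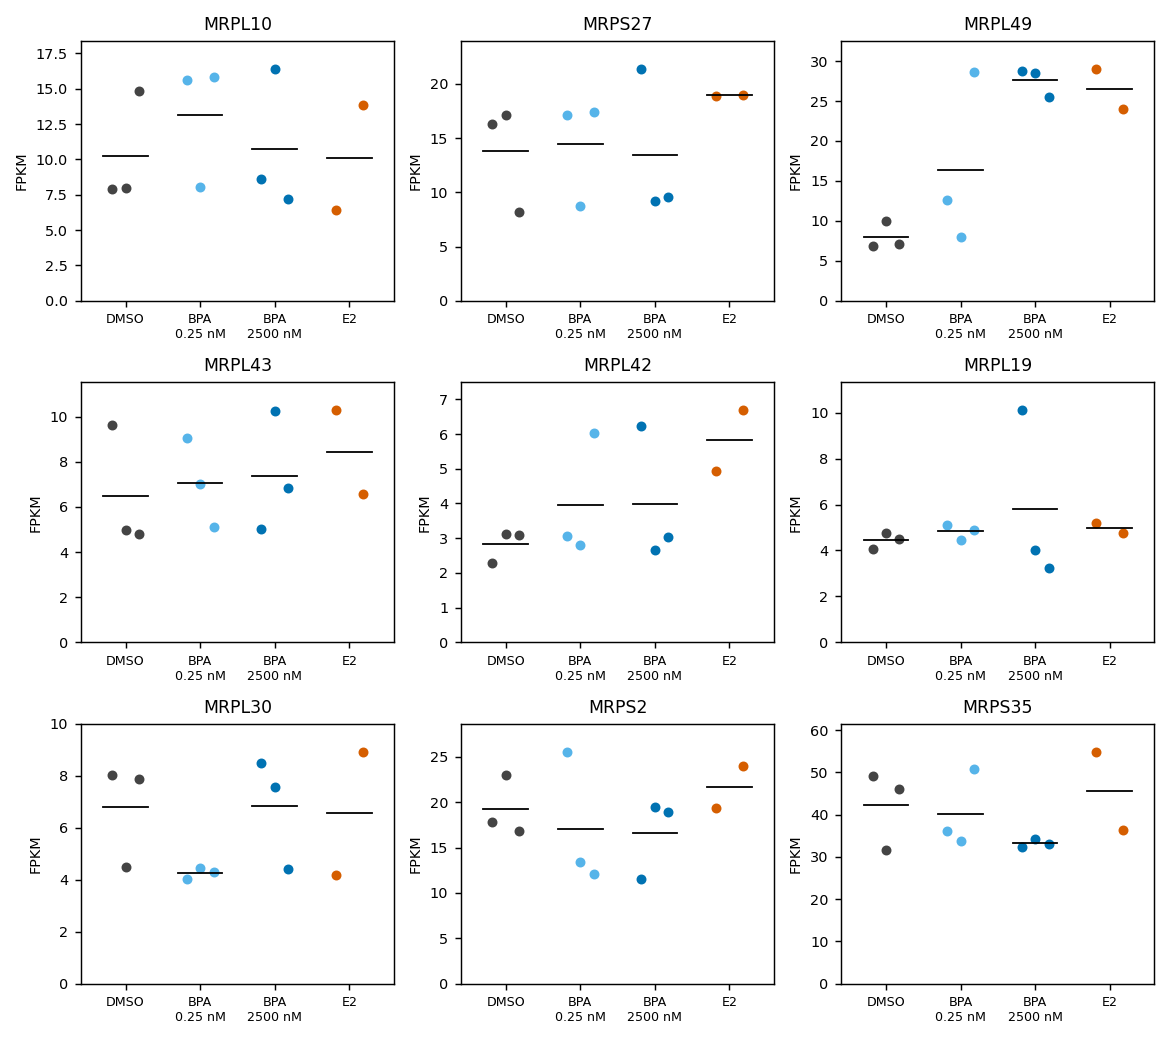
FPKM of the 9 MRP genes with the largest residual SD, 1 point per library by group, with the group mean as a line. Within a group the points of MRPL10, MRPS27, MRPL43 and MRPL30 separate into a high and a low level.

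Pairs of MRP genes correlated weakly over the 11 libraries, and pairs of other loci were not computed for comparison. Where genes vary little, as most here did, such a correlation can miss a small shared shift. The median Pearson correlation between pairs of the 78 genes was 0.11, with 0.13 among MRPL symbols and 0.12 among MRPS symbols, a description over libraries that share the same scaling. Of the 78, 8 had a highest library at least 2 times the lowest, and 17.9% of all loci tested did. Those loci were not matched for level (median 5.33 FPKM, against 22.1 for MRPL and 14.9 for MRPS symbols). A locus at 0 in any library was counted as passing.

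Summed over genes, the MRPL symbols measured 1392, 1282 and 1349 FPKM in the DMSO libraries, 1401, 1448 and 1422 at 0.25 nM BPA, 1427, 1437 and 1380 at 2500 nM BPA, and 1405 and 1379 with E2. The sum lay above every DMSO library in all 3 BPA 0.25 nM libraries and in 2 of 3 BPA 2500 nM libraries. That order depended on the scaling: with the libraries rescaled by the median of ratios, the sum lay above every DMSO library in 2 of 3 BPA 0.25 nM libraries and in all 3 BPA 2500 nM libraries. The MRPS symbols, which include MRPS30, MRPS18A and MRPS36, summed to 650, 585 and 641 with DMSO, 642, 642 and 655 at 0.25 nM BPA, 633, 632 and 619 at 2500 nM BPA, and 670 and 634 with E2. Here every treated group overlapped the DMSO range. All MRP genes together made up 0.93% ± 0.030 of summed FPKM with DMSO (SD, n = 3), 0.97% ± 0.011 with BPA 0.25 nM (n = 3), 0.97% ± 0.020 with BPA 2500 nM (n = 3) and 0.97% ± 0.0010 with E2 (n = 2). The share of FPKM on the mitochondrial chromosome, whose mRNAs this ribosome translates, was 13.6% to 14.3% with DMSO, 12.6% to 12.7% at 0.25 nM BPA, 12.9% to 13.6% at 2500 nM BPA, and 14.0% and 12.3% with E2. That share was lower where the unscaled sum of the MRPL symbols was highest, in the BPA 0.25 nM group, and its part in the sums was not tested.

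**Figure D3:**
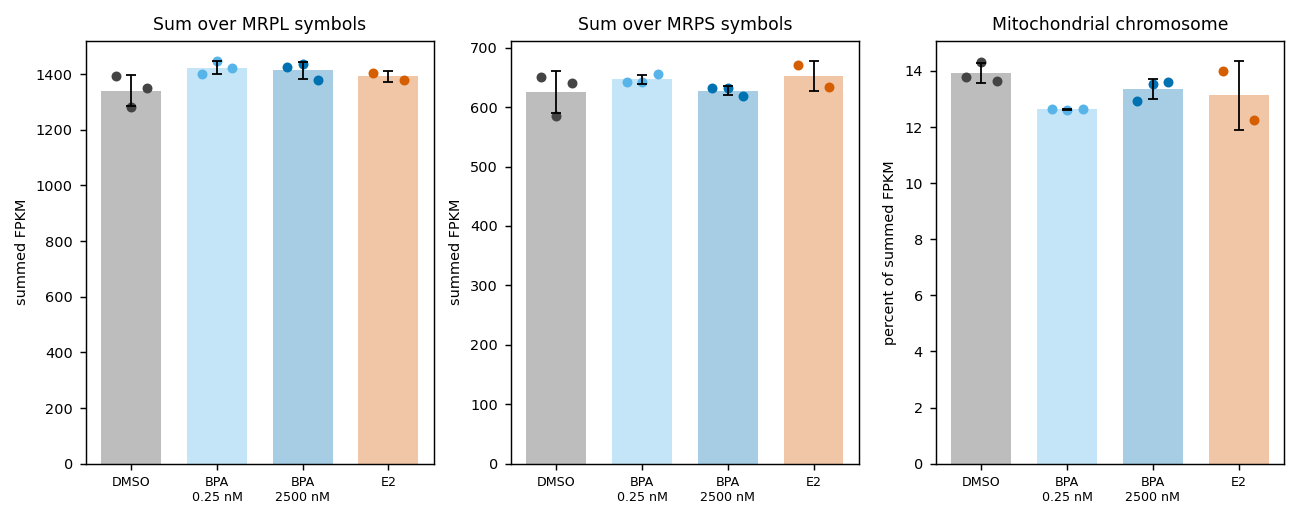
Summed FPKM of genes with MRPL symbols and with MRPS symbols, and the share of summed FPKM on the mitochondrial chromosome in percent. Bars are group means, error bars 1 SD and points single libraries. The second DMSO library, at 1282 and 585, is the lowest in both sums.

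BPA at 0.25 nM, the low dose, was compared with DMSO gene by gene with limma on log2(FPKM + 1). None of the 78 MRP genes passed an adjusted p of 0.05, and of all 12182 loci tested 0.0164% did. Differences leaned to higher values among MRPL symbols: 42 of 49 MRPL symbols were positive, with a median of 0.073 on the log2 scale, against 18 of 29 MRPS symbols with a median of 0.017. Over all loci tested 50.3% were positive and the median was 0.00062. Among loci with a mean of at least 5 FPKM the median was 0.0172, with 0.0727 for MRPL and 0.0173 for MRPS symbols. At an unadjusted p under 0.05, 13 MRP genes were higher and 0 lower, against backgrounds of 5.24% and 3.87%. The BPA libraries lay above all DMSO libraries for 16 of the 78 and below for 1, against 9.01% and 8.05% of all loci tested. Without the first DMSO library 43 of 49 MRPL and 21 of 29 MRPS symbols were positive. Without the second, 36 and 14 were, and the median of the MRPL symbols was 0.047 and that of the MRPS symbols -0.0046. The MRPS median was also -0.0003 without the third BPA library and 0.0063 without the third DMSO library, and it was 0.052 and 0.042 without the first DMSO and the first BPA library. The median standard error of a single MRP gene was 0.068.

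MRPL27, whose bacterial counterpart reaches into the peptidyl transferase centre, stood out for its tight groups (chr17:50367857-50373214, minus strand, GRCh38). It measured 10.4, 10.4 and 10.6 FPKM in the DMSO libraries, 12.9, 13.1 and 12.8 at 0.25 nM BPA, 13.0, 11.8 and 12.2 at 2500 nM BPA, and 11.5 and 11.1 with E2. All 8 treated libraries lay above the 3 DMSO libraries, and the low-dose libraries were the highest as a group. The share of all loci with every treated library above DMSO was not counted. The difference at 0.25 nM was 0.28 ± 0.045 (log2 scale, SE; adjusted p = 0.169).

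Next by p were 3 further large-subunit genes and a small-subunit gene. MRPL2, from the catalytic core, measured 12.8, 11.6 and 13.6 FPKM with DMSO and 14.3, 14.7 and 14.4 at 0.25 nM BPA, and the other treatments (12.2 to 13.2) stayed within the DMSO range. Its difference was 0.18 ± 0.056 (adjusted p = 0.442). MRPL57 measured 11.5, 11.6 and 11.8 with DMSO and 13.0, 13.6 and 13.9 at the low dose, a difference of 0.20 ± 0.069 (adjusted p = 0.458). MRPL12, the stalk protein that also binds the mitochondrial RNA polymerase, measured 47.0, 41.0 and 43.9 with DMSO and 49.9, 53.1 and 47.4 at the low dose, a difference of 0.19 ± 0.067 (adjusted p = 0.480) at a locus shared with SLC25A10. The low-dose libraries of MRPL27, MRPL2, MRPL57 and MRPL12 all lay above the DMSO libraries.

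Of the small subunit, MRPS12, a protein of the decoding site, measured 23.38, 22.56 and 24.96 FPKM with DMSO and 25.3, 27.4 and 27.1 at 0.25 nM BPA, a difference of 0.16 ± 0.056 (adjusted p = 0.454). MRPS11 measured 6.36, 5.99 and 6.70 against 7.36, 7.66 and 6.97, a difference of 0.18 (adjusted p = 0.486). MRPS24 measured 9.2, 7.2 and 7.8 against 9.90, 9.68 and 9.92, a difference of 0.26 (adjusted p = 0.536), at a locus shared with URGCP. MRPS21, the most abundant of the MRPS symbols, overlapped between the groups, with 69.8, 63.7 and 75.7 against 74.6, 80.9 and 74.9.

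On the lower side, MRPL30 was the only MRP gene whose low-dose libraries all lay under its DMSO libraries (log2 difference -0.53 ± 0.29, adjusted p = 0.622), and it is 1 of the genes that switched levels within groups. MRPL1 (-0.11), MRPL34 (-0.033), MRPL33 (-0.016), MRPS14 (-0.13), MRPS22 (-0.068), MRPS17 (-0.21) and MRPS5 (-0.061) had the next smallest p on that side within their symbol class, with adjusted p from 0.701 to 0.962, and the libraries of all 7 overlapped those of DMSO.

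**Figure D4:**
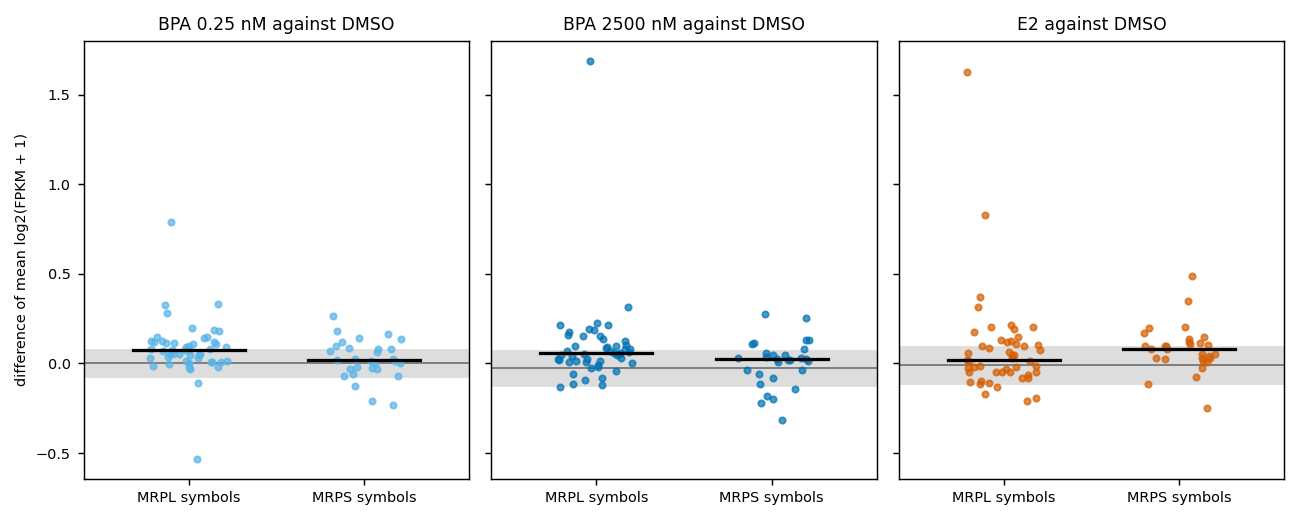
Difference from DMSO of each MRP gene on the log2(FPKM + 1) scale, by treatment and symbol class. Points are genes, thick bars the medians over the genes (0.073 and 0.017 at 0.25 nM BPA, 0.056 and 0.025 at 2500 nM BPA, 0.019 and 0.082 with E2), the thin line the median of all loci tested and the grey band its middle quartiles. The single high point of MRPL symbols at the high dose and with E2 is MRPL49.

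BPA at 2500 nM, the high dose, also left no MRP gene past an adjusted p of 0.05, although 1.3% of all loci tested were called in this comparison. Again more MRP genes were positive than negative, 38 of 49 MRPL symbols and 19 of 29 MRPS symbols, with medians of 0.056 and 0.025. Over all loci tested 42.8% were positive, with a median of -0.027. That lower lean was smaller among loci with a mean of at least 5 FPKM. Their median was -0.00155, with 0.051 for MRPL and 0.0254 for MRPS symbols at that filter. At an unadjusted p under 0.05, 9 MRP genes were higher and 1 lower, against 6.05% and 11.2% of all loci. The libraries did not overlap for 14 higher and 2 lower genes, against 9.54% and 17.1%. Without the second DMSO library 28 of 49 MRPL and 13 of 29 MRPS symbols were positive, with medians of 0.020 and -0.014. Without the first, 41 and 20 were positive, with medians of 0.0895 and 0.0515. The MRPL median was 0.034 without the first BPA library, and the 2 medians were 0.0854 and 0.040 without the third. With the libraries rescaled by the median of ratios, a change that lifted the median of all loci to -0.0031, they were 0.082 and 0.053.

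MRPL49 had the largest difference and MRPL27 the smallest p. MRPL49, a large-subunit protein found only in mitochondrial ribosomes (chr11:65122183-65127371, plus strand, GRCh38), measured 6.81, 9.96 and 7.12 FPKM with DMSO, 12.6, 7.99 and 28.6 at 0.25 nM BPA, 28.8, 28.6 and 25.5 at 2500 nM BPA, and 29.1 and 24.0 with E2. The 5 high-dose and E2 libraries were at about the level of the highest low-dose library, and the other 2 low-dose libraries were near DMSO. The difference was 1.69 ± 0.35 (adjusted p = 0.0558). It missed the threshold by little and passed it in some other fits: adjusted p was 0.0377 when only the DMSO and high-dose groups were fitted (0.107% of all loci called), and the call was also made without the second or without the third BPA 0.25 nM library (0.616% and 0.599%). Over all alternatives its adjusted p ran from 0.00872 to 0.179. The locus that overlaps MRPL49 on the opposite strand names FAU and SYVN1. That locus measured 35.8 to 36.8 with DMSO and 38.9 to 41.5 at 0.25 nM BPA. At 2500 nM BPA it measured 37.4 to 39.3, and with E2 38.1 and 32.8. All of its BPA libraries lay above its DMSO libraries. Its part in the values of MRPL49 was not tested.

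The difference of MRPL27 at the high dose was 0.22 ± 0.045 (adjusted p = 0.054). MRPL32, which must be cleaved by a mitochondrial protease before it joins the large subunit, measured 14.30, 13.91 and 14.74 FPKM with DMSO, 14.78, 15.81 and 16.38 at 0.25 nM BPA, 16.7, 17.0 and 16.7 at 2500 nM BPA, and 15.8 and 16.8 with E2. All 8 treated values lay above the DMSO values, although the lowest of them did so by a small margin, and the high-dose difference was 0.22 ± 0.048 (adjusted p = 0.0646). MRPS12 measured 28.6, 28.8 and 27.5 at the high dose and 28.6 and 25.8 with E2, again above each DMSO library, with a high-dose difference of 0.25 ± 0.056 (adjusted p = 0.0659). With either E2 library left out of the fit, MRPL27 and MRPS12 were called, where 2.04% and 2.06% of all loci were, and over all alternatives their adjusted p ran from 0.047 to 0.183 and from 0.0479 to 0.199.

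MRPL15, a protein of the large subunit with a bacterial counterpart, measured 97.75, 91.77 and 101.54 FPKM with DMSO, 102.41, 106.01 and 106.17 at 0.25 nM BPA, 111, 114 and 109 at 2500 nM BPA, and 109 and 116 with E2. Its treated libraries were all above DMSO and those of the high dose all above the low dose. The high-dose difference was 0.19 ± 0.046 (adjusted p = 0.0757). MRPL54, a protein near the stalk, measured 24.7, 22.2 and 24.3 with DMSO, 26.0, 28.4 and 24.6 at 0.25 nM BPA, 27.5, 28.0 and 28.2 at 2500 nM BPA, and 25.5 and 25.8 with E2. The high-dose difference was 0.23 ± 0.058 (adjusted p = 0.0925).

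**Figure D5:**
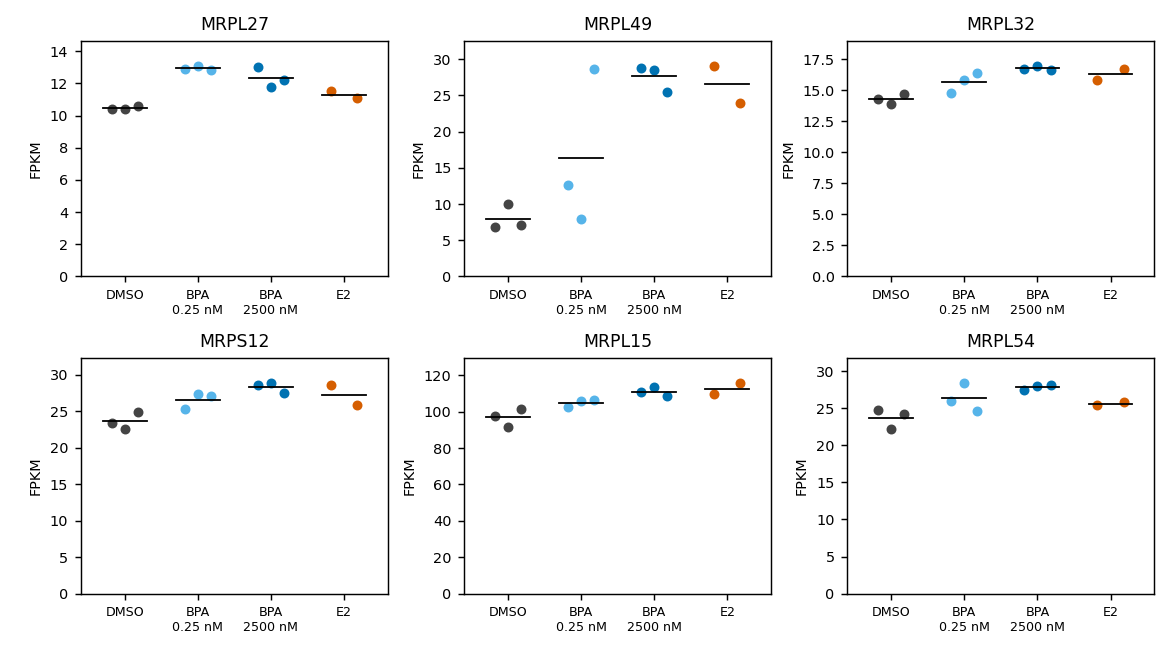
FPKM of the 6 MRP genes with the smallest adjusted p against DMSO in any treatment, 1 point per library by group, with the group mean as a line. MRPL27, MRPL32, MRPS12 and MRPL15 are above all DMSO libraries in every treated library by a small step. How many of all loci tested were so in every treated library was not counted. MRPL49 is at 6.81 to 9.96 FPKM with DMSO and at 24.0 to 29.1 with E2.

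Other MRP genes at the high dose had larger p-values. MRPL48 measured 4.33, 4.12 and 4.31 FPKM with DMSO and 5.22, 4.84 and 4.52 at the high dose (0.16, adjusted p = 0.18), MRPL21 was higher by 0.15 (adjusted p = 0.18) and MRPL20 by 0.15 (adjusted p = 0.23). Among MRPS symbols, MRPS15 (0.13, adjusted p = 0.339), MRPS23 (0.28, adjusted p = 0.39) and MRPS7 (0.13, adjusted p = 0.399) followed MRPS12. MRPL23, which lines the exit of the nascent chain, was the only MRP gene lower at an unadjusted p under 0.05. It measured 8.75, 8.63 and 9.20 with DMSO, 7.99, 8.40 and 7.65 at the high dose and 8.48 and 7.85 with E2, with differences of -0.13 ± 0.054 (adjusted p = 0.263) and -0.11 ± 0.060 (adjusted p = 0.451). MRPL39 was lower without overlap (-0.091, adjusted p = 0.37). MRPL58, a peptidyl-tRNA hydrolase that is part of the ribosome (-0.11), MRPL13 (-0.083), MRPS14 (-0.18), MRPS31 (-0.14), MRPS6 (-0.11) and MRPS35 (-0.32) overlapped DMSO, with adjusted p from 0.316 to 0.571.

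With E2 no MRP gene passed an adjusted p of 0.05, against 0.419% of all loci tested. The 2 symbol classes had another balance than with BPA: 25 of 29 MRPS symbols were positive, with a median of 0.082, and 27 of 49 MRPL symbols, with a median of 0.019. Over all loci 48.1% were positive and the median was -0.0071. Among loci with a mean of at least 5 FPKM it was 0.015, with 0.0135 for MRPL and 0.0817 for MRPS symbols. At an unadjusted p under 0.05, 10 MRP genes were higher and 1 lower, against 6.2% and 9.22%, and the libraries did not overlap for 17 higher and 3 lower genes, against 12.2% and 16.2%. The MRPS median was 0.034 without the second DMSO library (19 of 29 positive). It was 0.0705 without the first E2 library (19 of 29) and 0.0515 without the second E2 library (24 of 29). Without the first and the third DMSO library, 25 and 24 of 29 were positive. The MRPL median was 0.060 without the first DMSO library, 0.036 without the third, 0.0001 without the second, and 0.043 and 0.053 without the first and the second E2 library. The difference between the symbol classes was not tested.

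MRPL15 had the smallest p with E2, with a difference of 0.21 ± 0.051 (adjusted p = 0.0926). MRPL49 followed with 1.63 ± 0.40 (adjusted p = 0.0948), a call made only when the third BPA 0.25 nM library, which had the single high low-dose value, was left out (0.287% of all loci called). MRPL47, a protein at the exit tunnel, measured 54.4, 53.7 and 52.9 FPKM with DMSO, 57.11, 63.35 and 54.82 at 0.25 nM BPA, 55.1, 61.1 and 51.9 at 2500 nM BPA, and 63.39 and 70.89 with E2. The second E2 library stood above all others, the first only just exceeded the second low-dose library, and the E2 difference was 0.32 ± 0.082 (adjusted p = 0.11). MRPL32 (0.17 ± 0.054, adjusted p = 0.163), MRPS12 (0.20 ± 0.063, adjusted p = 0.184) and MRPL20 (0.19 ± 0.065, adjusted p = 0.207) were also above all DMSO libraries.

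Among MRPS symbols, MRPS25 measured 9.24, 6.46 and 7.64 FPKM with DMSO and 10.9 and 9.30 with E2, so that the lower E2 library barely cleared the highest DMSO library (0.35 ± 0.14, adjusted p = 0.289). MRPS30 (0.15, adjusted p = 0.372) and MRPS9 (0.099, adjusted p = 0.467) overlapped DMSO. MRPS27 was above DMSO in both E2 libraries (18.9 and 19.0) with a difference of 0.49 ± 0.42 (adjusted p = 0.64), within the upper of its 2 levels. Among MRPL symbols MRPL42, also 1 of the genes with separated levels, was above DMSO in both E2 libraries (0.83 ± 0.33, adjusted p = 0.279).

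On the lower side with E2, MRPL34 measured 24.91, 23.33 and 25.03 FPKM with DMSO and 21.9 and 20.1 with E2 (-0.21 ± 0.083, adjusted p = 0.279), and MRPL17 (-0.11, adjusted p = 0.64) and MRPL23 were also lower without overlap. MRPL37 rested on 1 library: it measured 48.1, 47.6 and 49.8 with DMSO, and 37.2 and 48.3 with E2 (-0.19 ± 0.090, adjusted p = 0.352). Without the second E2 library the difference was -0.38 and MRPL37 was called, as were 0.279% of all loci, and over all alternatives its adjusted p ran from 0.0481 to 0.963. MRPL24 (-0.13, adjusted p = 0.487), MRPS26 (-0.12, adjusted p = 0.493), MRPS17 (-0.25), MRPS34 (-0.078) and MRPS5 (-0.023) overlapped DMSO, and without the second E2 library the differences of MRPL24, MRPS34 and MRPS5 were positive (0.011, 0.0515 and 0.044).

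The genes were also grouped by descent. Of 30 large-subunit genes with a bacterial counterpart, 26 were positive at the low dose (median 0.074), 22 at the high dose (0.049) and 15 with E2 (-0.00068). Of 21 large-subunit genes particular to mitochondria, here including MRPS30 and MRPS18A, 17, 17 and 14 were positive, with medians of 0.055, 0.082 and 0.063. The 16 small-subunit genes with a bacterial counterpart had 10, 10 and 14 positive and medians of 0.020, 0.026 and 0.090, and the 10 particular to mitochondria had 6, 7 and 8 positive and medians of 0.032, 0.024 and 0.087. None of these genes was called.

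By place in the large subunit, the 5 genes of the stalk region (MRPL10, MRPL11, MRPL12, MRPL53 and MRPL54) were all positive at both BPA doses, with medians of 0.145 and 0.089, and 2 of 5 were positive with E2, with a median of -0.023. MRPL11, at the base of the stalk, measured 25.6, 26.2 and 25.1 FPKM with DMSO, 26.8, 26.3 and 28.5 at the low dose, 26.0, 28.7 and 28.1 at the high dose and 29.02 and 22.98 with E2, so 1 E2 library was the highest and the other the lowest. All 6 genes at the exit of the nascent chain were positive at the low dose (median 0.053), 4 at the high dose (0.015) and 2 with E2 (-0.062), MRPL47 being one of the 2. Of 8 genes of the central protuberance, 6 were positive in each treatment, with medians of 0.063, 0.075 and 0.055. Against E2 directly, all 5 stalk genes were lower with E2 than at either BPA dose, with medians of -0.135 and -0.112, and none was called. Over all loci tested 46.0% were positive with E2 against the low dose and 53.3% against the high dose. MRPL10 is 1 of the genes with separated levels, and MRPL12 and MRPL53 were read from loci shared with other coding genes.

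Between treatments no MRP gene was called either. The high dose against the low dose gave 2 higher and 2 lower genes at an unadjusted p under 0.05, against 2.12% and 5.69% of all loci, and called 0.0657% of all loci at an adjusted p under 0.05. MRPL2 (-0.17 ± 0.056, adjusted p = 0.513) and MRPL23 (-0.16 ± 0.054, adjusted p = 0.532) were lower at the high dose without overlap, MRPL21 was higher without overlap (0.14 ± 0.051, adjusted p = 0.582) and MRPL49 was higher with overlap (0.90 ± 0.35, adjusted p = 0.592). In all, 7 MRP genes were higher and 4 lower without overlap, against 568 and 1461 of the 12182 loci tested. The median over the 78 genes was -0.0086 and 33 were positive, while 37.4% of all loci were positive with a median of -0.030.

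E2 was set against each BPA dose. Against the low dose, 3 MRP genes were higher and 9 lower at an unadjusted p under 0.05, where all loci gave 4.47% and 8.09%, and 0.0493% of all loci were called. MRPL57 was the first by p: it measured 11.7 and 9.68 FPKM with E2 against 13.0, 13.6 and 13.9 (-0.31 ± 0.077, adjusted p = 0.239). MRPL2 (-0.23), MRPL27 (-0.18), MRPS26 (-0.24), MRPL12 (-0.21) and MRPL24 (-0.22) were also lower without overlap, with adjusted p from 0.258 to 0.328, and MRPL37, MRPL14 and MRPL23 made up the rest. MRPS14 (0.24), MRPS25 (0.34) and MRPL47 (0.20) were higher without overlap, with adjusted p from 0.361 to 0.381. Of the 78 genes, 8 were higher and 15 lower without overlap, against 1317 and 2063 of the 12182 loci tested.

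Against the high dose E2 gave 3 higher and 5 lower genes at an unadjusted p under 0.05, where all loci gave 5.32% and 3.69%, and 0.041% of all loci were called. MRPL37 had the smallest p, with 37.2 and 48.3 FPKM against 54.7, 52.1 and 53.4 (-0.33 ± 0.090, adjusted p = 0.537), and the low value was again that of the first E2 library. MRPL47 (0.26) and MRPS14 (0.30) were higher without overlap, both with an adjusted p of 0.537. In this comparison 12 MRP genes were higher and 12 lower without overlap, against 1635 and 1254 of the 12182 loci tested. MRPS symbols were positive in 21 of 29 and MRPL symbols in 20 of 49, with medians of 0.049 and -0.032, where 53.3% of all loci were positive. Leaving out the first E2 library gave calls of MRPL24, MRPL41 and MRPL57 against the low dose, where 1.75% of all loci were then called, and leaving out the second gave a call of MRPL37 against each dose, where 0.205% of all loci were called in both comparisons.

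Genes that serve the same ribosome were taken from lists of their own, and none of their members was called against DMSO. The 5 mitoribosomal proteins without an MRP symbol gave 4, 2 and 2 positive differences at the low dose, the high dose and with E2. Among them GADD45GIP1 measured 41.0, 35.5 and 39.1 FPKM with DMSO and 38.1 and 30.9 with E2 (-0.16, adjusted p = 0.43), and DAP3, a GTP-binding protein of the small subunit, was at 0.094 with E2 (adjusted p = 0.49). CHCHD1 (0.077, adjusted p = 0.743, at the low dose) and PTCD3 (-0.051, adjusted p = 0.646, at the high dose) differed little.

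Of 17 translation factors, 7, 8 and 11 were positive. MTIF2, the initiation factor that brings the initiator tRNA, measured 15.0, 15.9 and 17.5 FPKM with DMSO, 17.1, 16.9 and 16.6 at the low dose, 18.2, 17.7 and 16.8 at the high dose, and 19.8 and 20.2 with E2. Its E2 libraries were the highest of the 11, with a difference of 0.30 ± 0.065 (adjusted p = 0.0755). TUFM, the elongation factor that delivers tRNAs, measured 102 to 109 with DMSO and 112 to 116 at the high dose (0.11, adjusted p = 0.234), while GFM2, which takes part in recycling the ribosome, was lower there (-0.17, adjusted p = 0.217). LRPPRC, which stabilises mitochondrial mRNAs, was at 0.15 with E2 (adjusted p = 0.411) and GUF1 at -0.10 at the low dose (adjusted p = 0.69).

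Of 29 assembly factors, 20, 23 and 23 were positive, with medians of 0.070, 0.10 and 0.059. MRM3, a methyltransferase of the large rRNA, measured 13.9, 13.5 and 14.7 FPKM with DMSO, 11.56, 12.30 and 11.02 at the low dose, 16.2, 15.7 and 13.8 at the high dose, and 15.8 and 13.3 with E2. The 3 low-dose libraries were below every other library (-0.25 ± 0.078, adjusted p = 0.442). TFB1M, which dimethylates the small rRNA, was also lower there (-0.20, adjusted p = 0.485). RPUSD4, a pseudouridine synthase, was at 0.19 with E2 (adjusted p = 0.164) and MTERF4 at 0.49 (adjusted p = 0.213). RBFA, a maturation factor of the small subunit, was at 0.17 at the high dose (adjusted p = 0.203) and METTL15 at -0.26 (adjusted p = 0.209).

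Mitochondrial aminoacyl-tRNA synthetases, which charge the tRNAs this ribosome uses, gave 11, 6 and 8 positive of 17. TARS2 measured 17.0, 16.5 and 14.1 FPKM with DMSO, 17.6, 17.0 and 17.0 at the low dose, 13.0, 13.8 and 13.4 at the high dose, and 13.8 and 12.7 with E2. High-dose and E2 libraries lay below every DMSO and low-dose library, with differences of -0.23 ± 0.068 (adjusted p = 0.14) and -0.24 ± 0.076 (adjusted p = 0.169). IARS2 was at -0.10 at the high dose (adjusted p = 0.198), WARS2 at 0.13 at the low dose (adjusted p = 0.518) and YARS2 at 0.18 with E2 (adjusted p = 0.243). Of 11 genes of mitochondrial DNA transcription and replication, 5, 6 and 8 were positive. TFB2M, which helps the mitochondrial RNA polymerase to start, was at 0.17 at the high dose (adjusted p = 0.166), TOP1MT at 0.16 (adjusted p = 0.213), TEFM at -0.14 at the low dose (adjusted p = 0.513) and MTERF1 at -0.26 (adjusted p = 0.676).

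The regulators of mitochondrial biogenesis were coactivators and transcription factors, some of them those of the motifs above. They gave 7, 6 and 8 positive of the 8 listed genes with a locus, with medians of 0.085, 0.15 and 0.21. Neither NRF1, GABPA nor YY1 was among the 2 genes with the smallest p in any treatment against DMSO. PPRC1, a coactivator of the PGC family, measured 7.25, 7.76 and 8.28 FPKM with DMSO, 8.61, 8.04 and 8.09 at the low dose, 9.92, 9.23 and 9.35 at the high dose, and 9.49 and 8.90 with E2. The high-dose and E2 libraries lay above all others, with differences of 0.26 ± 0.057 (adjusted p = 0.061) and 0.22 ± 0.064 (adjusted p = 0.147). PPARGC1B, another coactivator of that family, measured 0.53, 1.36 and 0.32 with DMSO and 1.39 to 1.67 in all treated libraries, with differences of 0.59, 0.64 and 0.64 (adjusted p = 0.437, 0.111 and 0.163). The second DMSO library was close to the treated ones, and the other 2 were far below. These levels of PPARGC1B are near the 1 FPKM of the filter. ESRRA, a nuclear receptor of the same list, measured 12.3, 15.4 and 16.9 with DMSO and 17.4 to 21.0 in the treated libraries. Its differences were 0.37, 0.39 and 0.38 (adjusted p = 0.441, 0.123 and 0.192).

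Among coding loci outside the set, the 5 whose log2 level followed the mean of the MRP genes most closely over the 11 libraries were YARS2 (Pearson r = 0.952), NVL (0.904), DYNLL1 (0.898), NUP88 (0.890) and NSFL1C (0.872). These are descriptions over libraries that share groups and scaling. The 5 were picked as the highest of a search over many loci in only 11 libraries, which favours high values. The mean of the MRP genes itself moved over a narrow range, from 4.202 on the log2(FPKM + 1) scale in the second DMSO library to 4.352 in the first BPA 2500 nM library, with 4.31 and 4.28 in the other DMSO libraries. YARS2 was likewise lowest in the second DMSO library (14.8 FPKM) and at most 18.9 elsewhere.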

How the data were processed

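Per the labels' protocols, IOSE80 RNA taken up in Trizol was sequenced by Illumina. The submitters' processing notes name HISAT, UMI-tools, StringTie and edgeR, without versions or roles, and hg19 as build. Locus positions nevertheless matched GRCh38: 74.84% of 14123 Ensembl loci had the start and end of GENCODE release 29. The authors deposited 1 table of FPKM per locus for each of 11 libraries, and counts are not used here, so depth is unknown and no counting interval was computed. MRP genes were found by splitting locus names. Tests used limma 3.58.1 in R 4.3.3 (trend and robust settings) on log2(FPKM + 1) of 12182 loci, 1 mean per group over all libraries (7 residual degrees of freedom), with p-values adjusted by Benjamini and Hochberg over all loci within each of 6 comparisons and calls at an adjusted p under 0.05. A pseudocount of 1 understates changes of low genes. The script was tested on simulated data.

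Genes were named by rule: the 4 smallest p per direction and symbol class for each treatment against DMSO, the 4 highest and 4 lowest levels, the 4 largest and 4 smallest residual SDs, genes whose symbol misplaces them, genes at shared loci, the 2 smallest p of each other list, and the 5 most alike loci. Other genes named were chosen after their values were seen. The set and the lists were chosen with earlier results of these data known. Alternatives were a pseudocount of 0.1, other filters, rescaling, other fits, a replicate block, loci with 1 name, and leaving out each library.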

Additional observations from a re-analysis of the deposited data

How the results depend on the processing

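No MRP gene was called in any of the 6 comparisons with a pseudocount of 0.1, no filter, a mean of at least 5 FPKM, rescaling, plain limma settings or only loci naming 1 gene. Fitting only the groups compared called 1 gene, MRPL49, in BPA 2500 nM against DMSO, and 0.107% of all loci. Leaving out each library in turn gave 0 to 2 MRP calls in BPA 2500 nM against DMSO (0.263% to 2.06% of all loci), 0 to 1 in E2 against DMSO (0.0575% to 1.56%), 0 to 3 in E2 against BPA 0.25 nM (0.0164% to 1.75%) and 0 to 1 in E2 against BPA 2500 nM (0.0328% to 0.468%). A lone E2 library is then assumed to vary like the other groups. Over the same fits the median of MRPL symbols ran from 0.0202 to 0.0895 at BPA 2500 nM and from 0.0001 to 0.0603 with E2, and that of MRPS symbols with E2 from 0.0344 to 0.0874. In single genes the sign turned over the same fits: MRPL1 ran from -0.227 to 0.00698, MRPL34 from -0.0944 to 0.0566 and MRPL33 from -0.0508 to 0.0287 at BPA 0.25 nM, and MRPL24 from -0.272 to 0.0107, MRPS34 from -0.207 to 0.0515 and MRPS5 from -0.0906 to 0.0443 with E2; the cause was not tested. The summed level of MRPS symbols at BPA 0.25 nM was 638.62 FPKM after rescaling against 646.47. Placing genes by their subunit in the ribosome, an alternative chosen after seeing the data, moved no median by more than the spread between libraries. The replicate block gave 0 calls in every comparison. Same-numbered libraries had residual correlations from -0.117 to 0.164, and differently numbered ones from -0.164 to 0.166. Residuals from group means constrain each other within a group, so these values cannot exclude pairing. The labels do not say what a replicate number shares, and the numbers were not taken as pairs. Depth cannot be judged from FPKM.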

Other observations

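Some MRP loci share their place with a transcribed neighbour on the other strand. The locus of MRPL46, which also names DET1, overlapped that of MRPS11. The annotated genes lie head to head without overlap: MRPL46 reaches up to position 88467419 of chromosome 15 and MRPS11 begins at 88467453. MRPL46 ran from 2.49 to 3.14 FPKM and MRPS11 from 5.99 to 7.66 over the 11 libraries. MRPL43 overlapped TWNK, the helicase of mitochondrial DNA, which was also uneven, with 2.41, 0.99 and 5.38 FPKM with DMSO, 1.54, 5.84 and 2.18 with BPA 0.25 nM, 4.30, 1.93 and 1.20 with BPA 2500 nM, and 7.51 and 6.49 with E2 (1.19 on the log2 scale with E2, adjusted p = 0.351). Outside the E2 group the high libraries of TWNK were not those of MRPL43, which was high in the first DMSO, the first BPA 0.25 nM, the second BPA 2500 nM and the first E2 library. The locus of MRPL30, which carries 5 names and is longer than the annotated gene, overlapped MITD1 and TXNDC9. These ran from 6.46 to 8.17 and from 13.8 to 17.7 FPKM, and their part in the values of MRPL30 was not tested.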
